A study of Mus musculus with 38 samples.

Results

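BV2 microglia were compared with GL261 glioma cells, each grown alone in normoxia, across all genes. The comparison used 4 of the 38 RNA libraries of the series, 2 of BV2 and 2 of GL261, taken by their column labels from a table of 16 libraries that holds both lines. BV2 is a mouse microglial line immortalised with a retrovirus carrying raf and myc oncogenes. GL261 is a mouse glioma line that arose in C57BL/6 mice after a chemical carcinogen, and the GL261 cells used here stably express the plasmid pEGFP-N1, which encodes a green fluorescent protein. Both groups were untreated monocultures held at 21% O2, and neither carried an engineered deletion. The other libraries of the table hold both lines at less than 0.1% O2 for 16 h, and both lines from co-culture at either oxygen level. Each group has 2 libraries that the submitters call biological replicates. Nothing in the labels says that the replicates came from separately thawed cultures or clones, so the spread between replicates may be technical. The p-values measure only that spread, estimated from the replicates of all 16 libraries in 8 groups and not from these 4 alone. BV2 medium held 2% serum, while GL261 cells were seeded in 10% serum for co-culture and the serum of their monocultures is not given in the sources used here. Line and medium therefore cannot be told apart. The labels describe BV2 and GL261 as single lines, so values describe 1 line of each kind and not microglia or gliomas in general.

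Microglia are the resident macrophages of the brain. They arise from yolk sac progenitors, depend on signalling through the receptor Csf1r and on the transcription factor PU.1 (Spi1), and sense their surroundings with immune receptors that signal through adaptors such as Tyrobp and Fcer1g. Glioma cells carry programmes of the glial and neural progenitor lineage, including the factors Olig2, Sox2 and Sox10, and often show mesenchymal traits such as deposition of collagens. The 2 lines model the host and the tumour side of glioma, in which microglia and macrophages can make up a large part of the tumour mass.

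Total gene counts were 23568254 and 22025385 in the BV2 libraries and 19358023 and 17638048 in the GL261 libraries. Values are CPM, counts scaled to a common library size with TMM factors, and pairs of values give replicates 1 and 2 in that order. A count of 3 corresponds to between 0.127 and 0.148 CPM in these libraries, and where a gene had no count in a line its fold is a lower bound set against 3 counts per library. Such floors and the 95% exact binomial counting intervals given for ratios with few counts cover counting error only, and reads carried no molecular identifiers. Mitochondrial genes took 1.9% and 2.72% of counts in BV2 and 3.85% and 3.96% in GL261. The clone-named ribosomal RNA gene CT010467.1 took 2.6% and 1.08% in BV2 and 3.45% and 1.23% in GL261, and its part in the results was not tested.

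Most genes differed between the lines. Of 16882 genes tested, 12353 (73.2%) passed an adjusted p of 0.05 in edgeR's quasi-likelihood test with Benjamini-Hochberg adjustment. BV2 was higher for 5708 genes (33.8%) and GL261 for 6645 (39.4%), and 4529 did not pass. Counts of called genes in the lists below are to be read beside these shares. Under a second rule that also asks for a difference of at least 4-fold, 5430 genes (32.2%) were called, 1954 (11.6%) higher in BV2 and 3476 (20.6%) higher in GL261. The median log2 fold change (BV2 over GL261) over all genes tested was -0.12. It moved to -0.27 when libraries were scaled by their totals alone, so the direction of small differences depends on the scaling. Each SE given below was worked back from the log2 fold change and the F statistic of the edgeR test. For genes near the counting floor in a line it does not measure the precision of the fold.

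**Figure D1:**
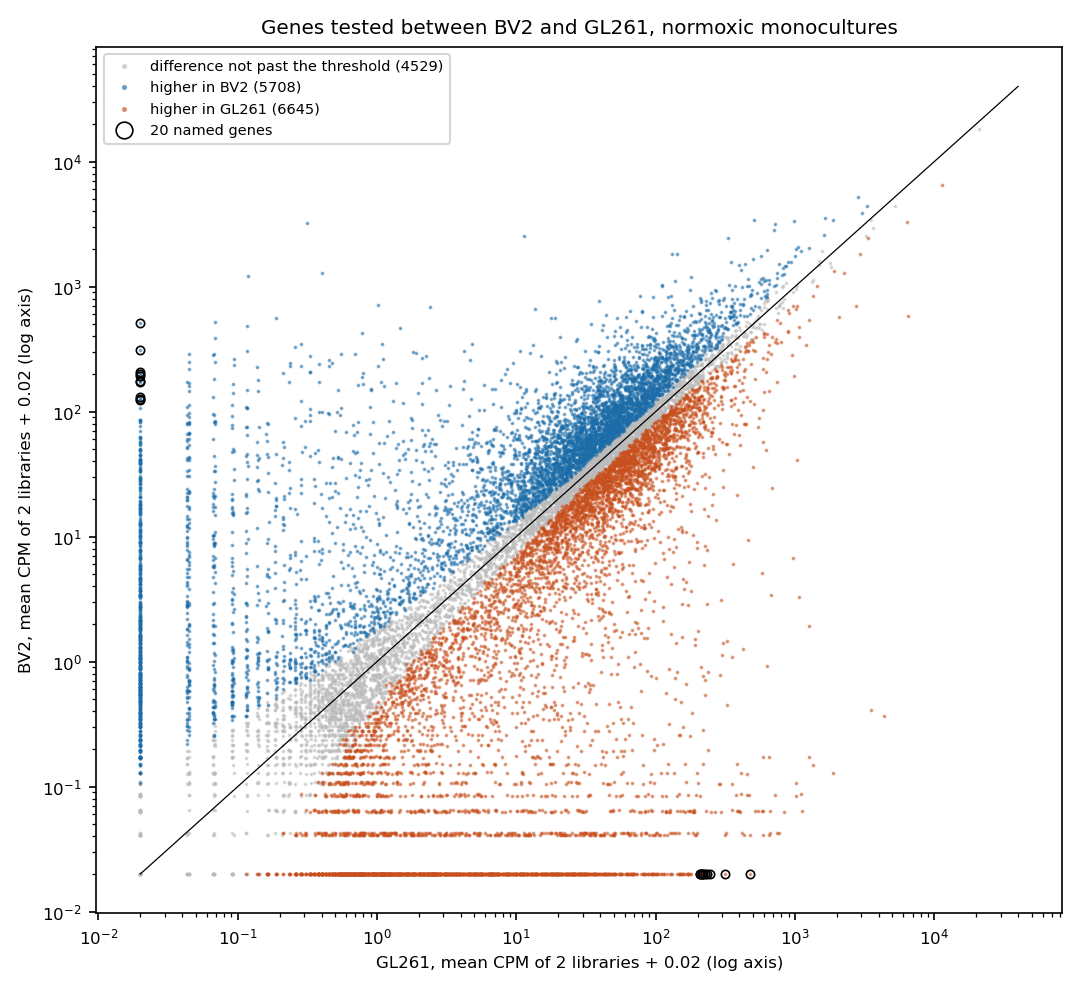
Each point is 1 of 16882 genes tested, with the mean CPM of 2 GL261 libraries on the x axis and of 2 BV2 libraries on the y axis (log axes, 0.02 added), coloured by the direction of genes called at an adjusted p of 0.05, and the line marks equal levels. The circled 20 named genes, 10 for each line, lie along the axes, where the other line has no count.

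GL261 expressed more genes that BV2 lacked than the reverse. Among 9767 genes with a mean of at least 5 CPM in BV2, 335 (3.43%) were at or under 3 counts in both GL261 libraries. Among 10598 genes with at least 5 CPM in GL261, 900 (8.49%) were at or under 3 counts in both BV2 libraries, and 555 of them had no BV2 count at all. At 100 CPM and above, 39 of 2415 BV2 genes (1.61%) and 128 of 2012 GL261 genes (6.36%) were of this kind. In the hypoxic monocultures, which the choice of these genes did not use, 293 of the 335 and 783 of the 900 were again at or under 3 counts in both libraries of the line that lacked them.

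The 10 genes with the largest BV2 excess, among called genes whose mean log2 CPM reached 4 in BV2, had no count in either GL261 library. Sirpa, the inhibitory receptor by which macrophages bind CD47 (chr2:129592835-129632228, plus strand), had 489 and 532 CPM in BV2 and no count in GL261, at least 3537-fold higher in BV2 (edgeR adjusted p = 1.7e-16). The choice of the 10 required both BV2 libraries to lie above both GL261 libraries, and it left out predicted-gene and clone names. Ccl3, a chemokine that attracts monocytes and other leukocytes (chr11:83647844-83649355, minus strand), had 312 and 310.1 CPM in BV2 and no count in either GL261 library, at least 2155-fold higher in BV2 (edgeR adjusted p = 2.3e-14). Hcls1, a haematopoietic actin-binding substrate of Lyn kinase, had 216 and 202 CPM in BV2 and no count in either GL261 library, at least 1450-fold higher. Inpp5d encodes SHIP1, the lipid phosphatase that limits PI3 kinase signalling in blood cells, and it had 190.5 and 212 CPM in BV2 and no count in either GL261 library, at least 1395-fold higher. The other 6 were the TLR4-like receptor gene Cd180 (at least 1325-fold higher), the ion exchanger gene Slc24a5 (at least 1212-fold), the protease gene Ctsc (at least 1194-fold), the tyrosine kinase gene Btk (at least 902-fold) and the lymphoid and myeloid factor genes Runx3 (at least 876-fold) and Ikzf1 (at least 866-fold). Slc24a5 is best known from pigment cells, and 39.5% of its exon bases overlap a gene on the other strand. Whether the counting used strand is not given in the sources used here, so the Slc24a5 value is uncertain.

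The 10 genes with the largest GL261 excess by the same rule had no count in either BV2 library. Col3a1, a fibrillar collagen of connective tissue (chr1:45311538-45349706, plus strand), had 378 and 567 CPM in GL261 and no count in either BV2 library, at least 3623-fold higher in GL261 (edgeR adjusted p = 2.7e-15). Its 2 GL261 libraries differed from each other, and both lay far above the BV2 libraries. Mmp17, a membrane-anchored metalloprotease (chr5:129584169-129611099, plus strand), had 285 and 349 CPM in GL261 and no count in either BV2 library, at least 2430-fold higher. Fkbp10, a collagen-folding isomerase of the endoplasmic reticulum, had 245 and 224 CPM in GL261 and no count in either BV2 library, at least 1798-fold higher. Olig1, a factor of the oligodendrocyte lineage, had 145 and 270.1 CPM in GL261 and no count in either BV2 library, at least 1592-fold higher in GL261 (edgeR adjusted p = 4.5e-13). The rule required both GL261 libraries to lie above both BV2 libraries for each of the 10. The remaining members were the proteoglycan gene Gpc1 (at least 1887-fold higher), Stox2 (at least 1736-fold), the motor gene Myo5b (at least 1690-fold), the cartilage-type collagen gene Col9a1 (at least 1657-fold), the protocadherin gene Pcdh1 (at least 1637-fold) and Efs (at least 1608-fold), a scaffold of Src family kinases. For Gpc1, 18.9% of exon bases overlap a gene on the other strand.

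The 5 genes with the most counts in each line were detected in both lines. Eef1a1, a translation elongation factor, had 5454 and 5033 CPM in BV2 and 2816 and 2840 CPM in GL261 (log2 fold change 0.89 ± 0.141 SE, adjusted p = 1.6e-05 in edgeR), although 26.6% of its 75-base words also occur in other annotated genes and its value is uncertain. Actb, cytoplasmic beta-actin, had 4893 and 3950 CPM in BV2 and 3630 and 2915 CPM in GL261 (log2 fold change 0.43 ± 0.154 SE, adjusted p = 0.017 in edgeR), a difference that lost its call under several processing choices. Vim, the intermediate filament of mesenchymal and glial cells, had the largest difference among them. It had 7144 and 5808 CPM in GL261 and 647 and 524 CPM in BV2 (log2 fold change -3.47 ± 0.175 SE, adjusted p = 2e-12 in edgeR), and the GL261 libraries lay well above both BV2 libraries. The mitochondrial gene mt-Co1 had 11350 and 11390 CPM in GL261 and 5354 and 7594 CPM in BV2 (log2 fold change -0.81 ± 0.192 SE, adjusted p = 0.00092 in edgeR).

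Promoters of genes from both sides are shown for the letters bound by a factor active in each kind of cell, picked after the search from the genes whose promoters held them. PU.1, the myeloid master factor, recognises sequences that include GAGGAAGT, and TEAD factors, the DNA partners of YAP, recognise CATTCCA. Both strands of the 250 bases before each RefSeq start (GRCm38.p6) were searched where a gene had a window in the set used. Genes were taken from the 20 leading genes and the myeloid, ITAM, leukocyte signalling, YAP, collagen and matrix lists. Members without a window were not searched, so neither the leading genes nor these lists were covered in full. Of 63 such genes higher in BV2 with a window, in 83 windows, 8 windows held GAGGAAGT. Of 58 such genes higher in GL261, in 68 windows, 2 held CATTCCA. The 250 bases before the start are printed 5′ to 3′ on the gene's own strand, with the letters found, on either strand, in capitals. The match begins 20 bases before the start in Inpp5d (gene on the plus strand), 11 in Vav1 (gene on the plus strand) and 24 in Fcgr4 (gene on the plus strand), and it lies farther upstream in Ctsc (gene on the plus strand). In Ajuba (gene on the minus strand) 2 matches begin 186 and 164 bases before the start.
Inpp5d, chr1:87620062-87620311: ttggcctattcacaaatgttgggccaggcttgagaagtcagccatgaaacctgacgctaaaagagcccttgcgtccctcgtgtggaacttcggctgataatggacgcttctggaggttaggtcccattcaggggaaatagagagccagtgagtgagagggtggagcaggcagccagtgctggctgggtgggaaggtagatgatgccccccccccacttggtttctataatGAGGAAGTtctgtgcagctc
Vav1, chr17:57278850-57279099: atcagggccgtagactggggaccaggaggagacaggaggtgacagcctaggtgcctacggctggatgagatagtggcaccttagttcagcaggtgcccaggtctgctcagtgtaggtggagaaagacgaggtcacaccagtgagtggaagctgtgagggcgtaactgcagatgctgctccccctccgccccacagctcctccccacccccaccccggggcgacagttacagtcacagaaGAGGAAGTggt
Fcgr4, chr1:171018676-171018925: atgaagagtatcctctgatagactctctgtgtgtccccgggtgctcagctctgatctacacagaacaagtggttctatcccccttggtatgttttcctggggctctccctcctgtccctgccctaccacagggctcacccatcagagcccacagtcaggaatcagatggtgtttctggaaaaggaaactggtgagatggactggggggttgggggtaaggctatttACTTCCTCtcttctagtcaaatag
Ctsc, chr7:88277835-88278084: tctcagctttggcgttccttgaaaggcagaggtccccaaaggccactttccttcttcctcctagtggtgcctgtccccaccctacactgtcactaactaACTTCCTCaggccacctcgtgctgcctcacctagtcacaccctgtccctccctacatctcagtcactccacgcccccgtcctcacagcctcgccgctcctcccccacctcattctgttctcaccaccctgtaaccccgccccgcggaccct
Ajuba, chr14:54577662-54577911: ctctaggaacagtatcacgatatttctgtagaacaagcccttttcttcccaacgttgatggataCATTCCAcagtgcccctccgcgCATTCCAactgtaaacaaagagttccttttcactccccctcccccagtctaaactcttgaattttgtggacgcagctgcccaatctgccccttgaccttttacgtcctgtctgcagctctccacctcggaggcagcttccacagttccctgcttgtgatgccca
Vav1, a guanine exchange factor of blood cells, had 154 and 152 CPM in BV2 and 1.18 and 0.59 CPM in GL261. Fcgr4, an activating Fc receptor, had 10.2 and 8.73 CPM in BV2 and 0.094 and 0 CPM in GL261. Ajuba, a LIM protein of the Hippo pathway, had 248 and 221 CPM in GL261 and 7.03 and 8.51 CPM in BV2. The search took called genes only, and 73.2% of all genes tested were called.

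Over windows of 300 bases, from 250 before to 50 after each start, the same letters were present at low shares, given here as a description with no test. Genes without a window in the set used are left out of these shares. GAGGAAGT lay in 3.2% of all 32841 windows and in 3.13% of 13393 windows of genes tested. Among protein-coding genes called at 4-fold with a mean of at least 16 CPM in the higher line, it lay in 7.13% of 968 windows of BV2-high genes and 2.28% of 1139 windows of GL261-high genes. CATTCCA lay in 4.29% of all windows and 3.02% of those of genes tested, in 2.89% of windows of BV2-high genes and in 5.0% of those of GL261-high genes. The RUNX letters TGTGGTT lay in 5.27% of all windows, 3.69% of those of genes tested, 5.68% of BV2-high and 3.07% of GL261-high windows. The AP-1 letters TGANTCA lay in 7.81%, 5.33%, 6.92% and 5.62% in the same order. For factors of the glial lineage, the SOX letters ACAATGG lay in 3.66%, 2.1%, 3.1% and 2.99%, and the E-box letters CATATG in 3.92%, 1.83%, 2.27% and 1.84%, so that neither had a higher share in GL261-high than in BV2-high windows. Mean GC content was 59.2% in BV2-high and 60.9% in GL261-high windows, and 53.8% over all windows. A match is not a bound site, and most windows of either set held none of these letters.

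Markers of cell identity separated the lines as labelled. All 22 pan-myeloid markers were tested and higher in BV2, against 33.8% of all genes tested, and their summed level was 5171 and 5046 CPM in BV2 and 19.8 and 16 CPM in GL261. Csf1r, the receptor for the survival factors Csf1 and Il34, had 518 and 604 CPM in BV2 and 0.188 and 0.148 CPM in GL261 (log2 fold change 11.65 ± 0.299 SE, adjusted p = 3.5e-16 in edgeR). Cd53, a leukocyte tetraspanin, had 294 and 279 CPM in BV2 and 0 and 0.0492 CPM in GL261. Both libraries of BV2 lay far above GL261 for each of these. Adgre1, which encodes the macrophage antigen F4/80, had 32.7 and 38.3 CPM in BV2 and no count in either GL261 library, at least 246-fold higher. Several classical markers were low in BV2 as well. Aif1, which encodes IBA1, had 1.65 and 1.47 CPM in BV2 and no count in either GL261 library, and Cx3cr1, the fractalkine receptor, had 0.848 and 1.74 CPM in BV2 and no count in either GL261 library. In a bulk library a low level in all cells and a higher level in few cells cannot be told apart.

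Homeostatic microglial markers, which distinguish brain microglia from other macrophages, were mostly scarce. Of the list, 9 of 12 genes were tested, and 7 were higher in BV2, 1 was higher in GL261 and 1 did not pass the test. P2ry12, the purinergic receptor of surveying microglia, had 7.63 and 6.55 CPM in BV2 and 0 and 0.0492 CPM in GL261, a clear BV2 excess at a low level. Tmem119 had 1.48 and 2.01 CPM in BV2 and 0.282 and 0.295 CPM in GL261. Sall1, a factor that maintains microglial identity, ran the other way. It had 4.94 and 5.9 CPM in GL261 and no count in either BV2 library, at least 41.6-fold higher in GL261 (edgeR adjusted p = 6.2e-09). Siglech, Gpr34 and Slc2a5 were too low for the filter on counts. Cst3, a secreted protease inhibitor with wide expression, had 374 and 403 CPM in BV2 and 171 and 137 CPM in GL261. P2ry13, Selplg and Fcrls were also higher in BV2, with log2 fold changes of 10.57, 9.50 and 7.8. Such folds do not give the level, and where a line has no count their size depends on the prior count. Of the 7 higher in BV2, 6 differed by at least 4-fold. BV2 thus carried the pan-myeloid markers of its label and an excess of 7 of the 9 homeostatic markers tested. Sall1 and Siglech, markers of resting microglia, had no count in BV2.

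Glial and progenitor markers marked GL261. All 12 oligodendrocyte-lineage markers tested, of 13 on the list, were higher in GL261, against 39.4% of all genes tested, and their sum was 32.5 and 30 CPM in BV2 and 3053 and 3309 CPM in GL261. Sox10, a factor of oligodendrocyte and neural crest cells, had 1033 and 1186 CPM in GL261 and 0 and 0.134 CPM in BV2, a ratio of 17010 (95% counting interval 5818 to 82460, edgeR adjusted p = 1.1e-14). Olig2 had 40.9 and 72.6 CPM in GL261 and 0.17 and 0.178 CPM in BV2, and Pdgfra, the PDGF receptor of oligodendrocyte precursors, had 156 and 209 CPM in GL261 and 0.381 and 0.356 CPM in BV2. In each of these genes the GL261 libraries lay above both BV2 libraries by a wide margin. Nes, the progenitor filament nestin, had 747 and 785 CPM in GL261 and 0 and 0.0446 CPM in BV2, a ratio of 35250 (95% counting interval 6327 to 1392000, edgeR adjusted p = 2.3e-15). Of the astrocyte list, 8 of 10 genes were tested, and 1 was higher in BV2, 5 were higher in GL261 and 2 did not pass the test. S100b had 698 and 598 CPM in GL261 and 0.0424 and 0 CPM in BV2, while Gfap, the defining astrocyte filament, had 10.2 and 8.12 CPM in GL261 and 0.551 and 0.936 CPM in BV2. Aqp4 and Sox9, also astrocyte markers, fell below the count filter. GL261 therefore carried oligodendrocyte-lineage and progenitor markers at high levels and Gfap at a low one.

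Among markers of other cell types, mesenchymal ones were mostly higher in GL261, and most others were low in both lines, with exceptions in each. Of the mesenchymal list, 11 of 15 genes were tested, and 3 were higher in BV2 and 8 were higher in GL261. Of those higher in GL261, 7 differed by at least 4-fold, Col3a1 among them. The list summed to 219 and 237 CPM in BV2 and 1247 and 1438 CPM in GL261. Cd44, a hyaluronan receptor, was higher in BV2, with 198 and 215 CPM in BV2 and 122 and 111 CPM in GL261 (log2 fold change 0.83 ± 0.212 SE, adjusted p = 0.0018 in edgeR). Of the endothelial list, 5 of 8 genes were tested, and 3 were higher in BV2, 1 was higher in GL261 and 1 did not pass the test. Kdr and Flt1, which encode VEGF receptors, were higher in BV2, with 27.2 and 34 CPM in BV2 and no count in either GL261 library for Kdr and 239 and 318 CPM in BV2 and 13.2 and 16.9 CPM in GL261 for Flt1. Cdh5, the defining endothelial cadherin, had 0.297 and 0.356 CPM in BV2 and 0 and 0.394 CPM in GL261 and did not pass the test. Epcam, an epithelial adhesion molecule, had 16.3 and 17 CPM in GL261 and no count in either BV2 library, at least 128-fold higher in GL261. Of 10 neuronal markers, 7 did not reach the count filter and the 3 tested, Map2, Tubb3 and Slc17a7, were higher in GL261. The levels were 121 and 162 CPM in GL261 and 0.0424 and 0.0446 CPM in BV2 for Map2 and 70.2 and 74.9 CPM in GL261 and 0.0848 and 0.0446 CPM in BV2 for Tubb3. None of the 8 neutrophil and mast cell markers reached the count filter, and of the 8 lymphoid markers Cd79a alone did, with 0.047 and 0.492 CPM in GL261 and no count in either BV2 library.

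**Figure D2:**
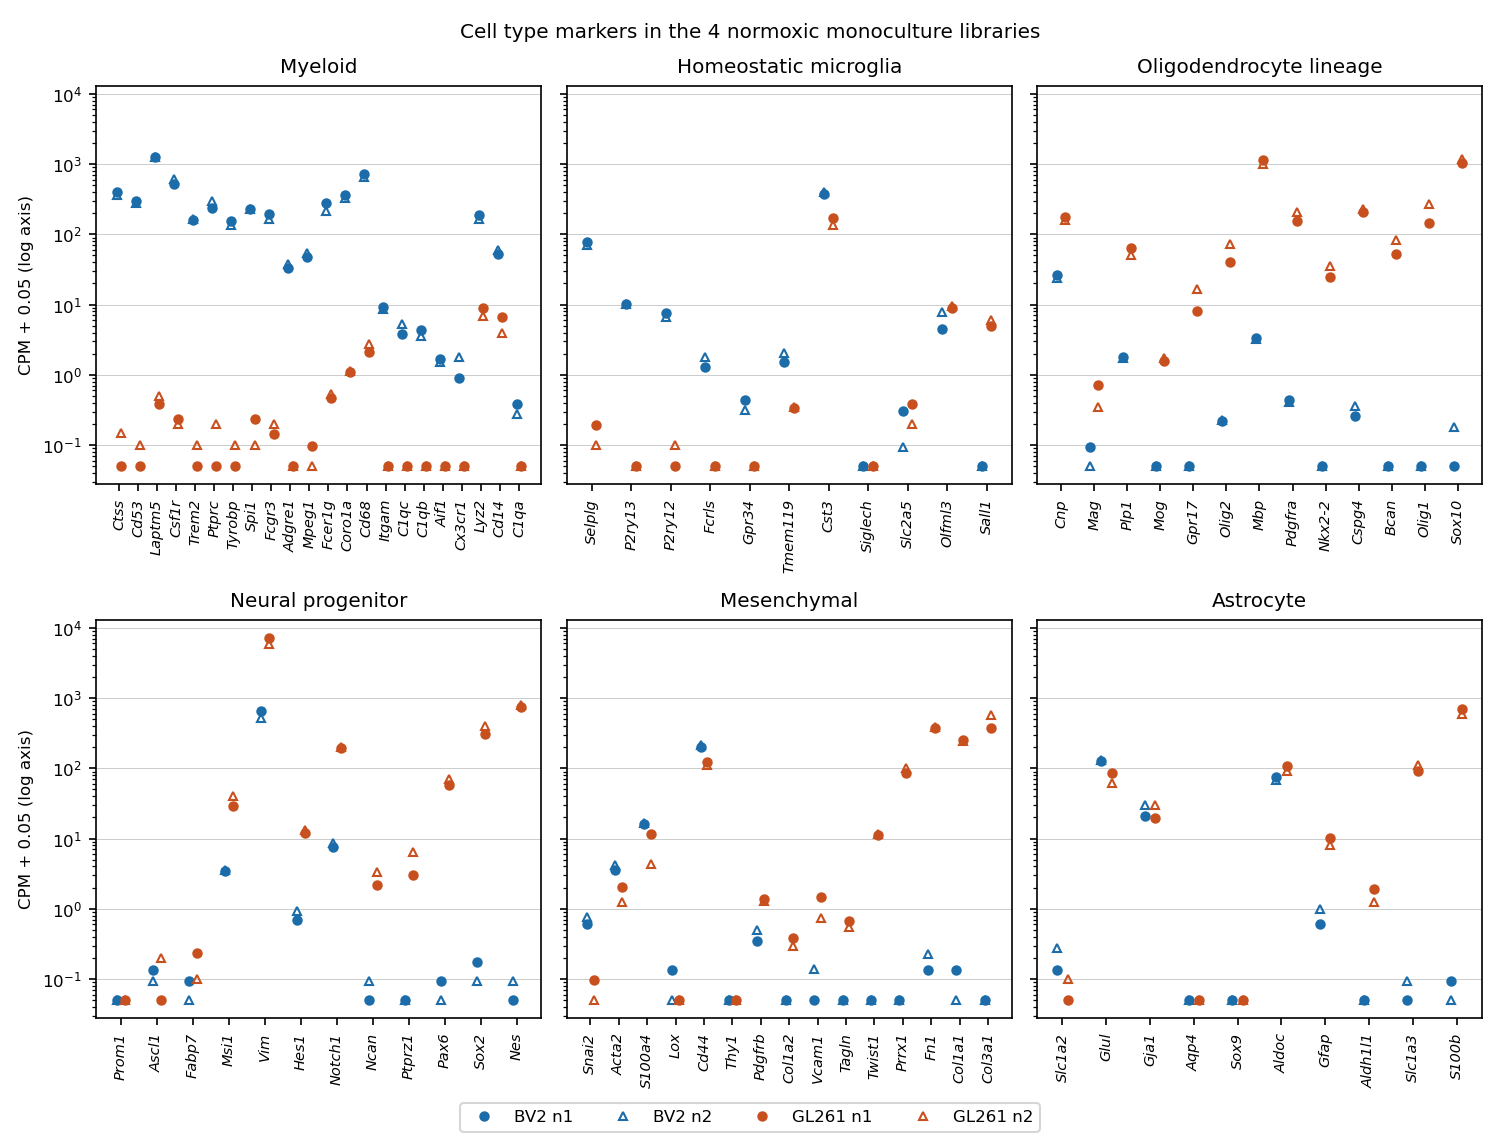
Each point is 1 library's CPM (y axis, log scale, 0.05 added) for the marker gene on the x axis, in 6 panels of marker lists, with blue for BV2, orange for GL261, circles for replicate 1 and triangles for replicate 2, with 1 gene of the lists not drawn. Myeloid genes lie higher in BV2 and oligodendrocyte-lineage genes higher in GL261, and Sall1 is a homeostatic microglial marker with counts in GL261 and none in BV2.

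Transcription factors followed the same division. Of the myeloid factors, 20 of 23 genes were tested, and 17 were higher in BV2, 2 were higher in GL261 and 1 did not pass the test. Spi1, which encodes PU.1, had 233 and 226 CPM in BV2 and 0.188 and 0.0492 CPM in GL261 (log2 fold change 10.82 ± 0.269 SE, adjusted p = 2.9e-16 in edgeR). Fli1, an ETS factor of blood cells, had 84.4 and 86.3 CPM in BV2 and no count in either GL261 library. The exceptions were Cebpa and Klf4. Cebpa, known from myeloid and fat cells, had 4.65 and 4.28 CPM in GL261 and 0.127 and 0.356 CPM in BV2 (log2 fold change -4.18 ± 0.395 SE, adjusted p = 3.3e-08 in edgeR), and both of its GL261 libraries were above BV2. Klf4 had 103 and 71.2 CPM in GL261 and 8.77 and 9.94 CPM in BV2 (log2 fold change -3.22 ± 0.189 SE, adjusted p = 1.9e-11 in edgeR). Of the neural and mesenchymal factors, 30 of 40 genes were tested, and 3 were higher in BV2, 24 were higher in GL261 and 3 did not pass the test. Nfib, a factor of glial differentiation, had 149 and 147 CPM in GL261 and no count in either BV2 library, at least 1136-fold higher in GL261. Prrx1, a mesenchymal homeobox factor, had 85.9 and 102 CPM in GL261 and no count in either BV2 library, at least 722-fold higher. Lhx2, a LIM homeobox factor of the forebrain and of haematopoietic progenitors, was instead a BV2 gene, with 18.9 and 20.1 CPM in BV2 and 0.141 and 0.197 CPM in GL261 (log2 fold change 6.80 ± 0.345 SE, adjusted p = 5.8e-12 in edgeR).

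Homeobox genes of the Hox clusters, which record position along the body axis and are largely silent in forebrain, were expressed in GL261. Of the list, 19 of 39 genes were tested, and 2 were higher in BV2, 16 were higher in GL261 and 1 did not pass the test. Hoxd8 had 21.2 and 27.9 CPM in GL261 and no count in either BV2 library, at least 188-fold higher in GL261. Hoxc10 had 4.09 and 3.2 CPM in GL261 and no count in either BV2 library, at least 27.9-fold higher. BV2 was higher for Hoxb4, a factor of blood progenitors, with 4.36 and 3.21 CPM in BV2 and 0 and 0.0492 CPM in GL261, and for Hoxc5, with 2.67 and 2.41 CPM in BV2 and 0.705 and 0.394 CPM in GL261. Levels in both lines were modest, with list sums of 27.6 and 26.1 CPM in BV2 and 140.1 and 153 CPM in GL261.

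Immune receptor signalling lay almost wholly with BV2. In the group of Fc receptors and ITAM signalling, which couples surface receptors to Syk family kinases, 26 of 27 genes were tested, and 25 were higher in BV2 and 1 was higher in GL261. The group's median log2 fold change was 8.07, or 7.63 with genes lacking counts in a line set at their bound, beside -0.12 for all genes. Clec4e, the C-type lectin Mincle, had 40.5 and 40.7 CPM in BV2 and no count in either GL261 library, at least 281-fold higher. Trem2, the lipid receptor of microglia, had 158 and 164 CPM in BV2 and 0 and 0.0492 CPM in GL261, a ratio of 6693 (95% counting interval 1201 to 264400, edgeR adjusted p = 9.6e-16). All 29 genes tested for leukocyte cytoskeleton and signalling, of 30, were higher in BV2, with a median of 10.02, or 8.79 with genes lacking counts in a line set at their bound. Lcp1, the leukocyte actin-bundling protein L-plastin, had 1191 and 1258 CPM in BV2 and 0 and 0.197 CPM in GL261 (log2 fold change 13.54 ± 0.364 SE, adjusted p = 5.4e-16 in edgeR).

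Pattern recognition and chemotaxis genes also lay mostly with BV2, beside 33.8% of all genes tested. Of the Toll-like receptors and adaptors, 22 of 25 genes were tested, and 16 were higher in BV2, 2 were higher in GL261 and 4 did not pass the test. Tlr9, the endosomal DNA receptor, had 30.2 and 37.4 CPM in BV2 and no count in either GL261 library, at least 234-fold higher. The adaptor Ticam1 (TRIF) was higher in GL261, with 34 and 32.8 CPM in GL261 and 18.4 and 15.7 CPM in BV2 (log2 fold change -0.97 ± 0.132 SE, adjusted p = 2.6e-06 in edgeR). Of the chemoattractant receptors, 11 of 22 genes were tested, and 8 were higher in BV2, 2 were higher in GL261 and 1 did not pass the test. C3ar1, the receptor for complement fragment C3a, had 58.4 and 56.2 CPM in BV2 and no count in either GL261 library, at least 397-fold higher. Ackr3, a scavenger of Cxcl12, was a GL261 gene with 37.3 and 30.9 CPM in GL261 and 0 and 0.0446 CPM in BV2, a ratio of 1574 (95% counting interval 282 to 62210, edgeR adjusted p = 8.7e-13). Among chemokine ligands, 16 of 24 genes were tested, and 8 were higher in BV2, 2 were higher in GL261 and 6 did not pass the test. Ccl9 had 532 and 506 CPM in BV2 and 0 and 0.0984 CPM in GL261, a ratio of 10790 (95% counting interval 2988 to 89140, edgeR adjusted p = 1.1e-15). Cxcl10, an interferon-induced chemokine, was higher in GL261 with 19.9 and 8.81 CPM in GL261 and 1.91 and 1.11 CPM in BV2 (log2 fold change -3.24 ± 0.523 SE, adjusted p = 2e-05 in edgeR), and Cx3cl1, the neuronal fractalkine, with 2.68 and 2.26 CPM in GL261 and 0.212 and 0.312 CPM in BV2. The fractalkine ligand was thus higher in the line without a count for its receptor.

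Cytokine, complement and oxidase genes differed member by member, beside 33.8% higher in BV2 and 39.4% higher in GL261 over all genes tested. Of the cytokine and inflammasome genes, 21 of 26 genes were tested, and 11 were higher in BV2, 5 were higher in GL261 and 5 did not pass the test. Nlrp3, the inflammasome sensor, had 37.4 and 41.6 CPM in BV2 and 0.282 and 0.148 CPM in GL261 (log2 fold change 7.47 ± 0.315 SE, adjusted p = 1.5e-13 in edgeR), and Casp1, the protease that cleaves pro-interleukin-1 beta, had 79.7 and 81.8 CPM in BV2 and 0.188 and 0.0984 CPM in GL261 (log2 fold change 9.06 ± 0.298 SE, adjusted p = 4.9e-15 in edgeR). Pycard, the adaptor that joins them and a gene picked out after its values were seen, had no count in either BV2 library and no count in either GL261 library. GL261 was higher for Tgfb2, with 75.9 and 86.5 CPM in GL261 and 0.212 and 0.0446 CPM in BV2 (log2 fold change -9.21 ± 0.403 SE, adjusted p = 2.6e-13 in edgeR), and for Tgfb3, with 16.8 and 13.7 CPM in GL261 and no count in either BV2 library. Of the complement genes, 15 of 21 genes were tested, and 9 were higher in BV2, 3 were higher in GL261 and 3 did not pass the test. C1qc had 3.81 and 5.21 CPM in BV2 and no count in either GL261 library, and C1s1, a protease of the same C1 complex, had 27.7 and 35.6 CPM in GL261 and 0.0424 and 0.0446 CPM in BV2. Genes of the C1 complex were therefore found on both sides. Of the NADPH oxidase genes, 9 of 12 genes were tested, and 8 were higher in BV2, 0 were higher in GL261 and 1 did not pass the test. Cybb, the catalytic subunit of the phagocyte oxidase, had 41.6 and 44.7 CPM in BV2 and 0 and 0.0492 CPM in GL261, a ratio of 1794 (95% counting interval 322 to 70910, edgeR adjusted p = 4e-13).

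MHC class I genes were mostly higher in BV2 while interferon-stimulated genes were more often higher in GL261. Of the MHC class I genes, all 18 genes were tested, and 13 were higher in BV2, 2 were higher in GL261 and 3 did not pass the test, with a median log2 fold change of 1.33. H2-K1, a classical class I heavy chain, had 525 and 602 CPM in BV2 and 55.8 and 49.5 CPM in GL261 (log2 fold change 3.42 ± 0.177 SE, adjusted p = 3e-12 in edgeR), and Nlrc5, the class I transactivator, had 97.1 and 109 CPM in BV2 and 6.16 and 5.61 CPM in GL261 (log2 fold change 4.13 ± 0.25 SE, adjusted p = 3.1e-11 in edgeR). H2-Q7 had 33.9 and 34.5 CPM in BV2 and no count in either GL261 library, a value made uncertain by 17.0% of 75-base words shared with other genes. Of the MHC class II genes, 9 of 11 genes were tested, and 5 were higher in BV2, 3 were higher in GL261 and 1 did not pass the test. Cd74, the invariant chain, had 126 and 111 CPM in BV2 and 2.44 and 0.59 CPM in GL261 (log2 fold change 6.26 ± 0.344 SE, adjusted p = 7.2e-12 in edgeR). H2-Aa, a class II heavy chain, had 5.41 and 2.36 CPM in GL261 and 0.0424 and 0.0446 CPM in BV2 and H2-Ab1 0.799 and 0.984 CPM in GL261 and 0.0424 and 0 CPM in BV2, so that these heavy chains were low in GL261 and near the counting floor in BV2. Of 30 interferon-stimulated genes, all tested, 21 were higher in GL261 and 4 in BV2, with a median of -1.69. Zbp1, a nucleic acid sensor, had 6.16 and 3.1 CPM in GL261 and 0.254 and 0.0891 CPM in BV2 (log2 fold change -4.69 ± 0.662 SE, adjusted p = 4e-06 in edgeR), and Rtp4 had 16.8 and 11.3 CPM in GL261 and 1.36 and 0.446 CPM in BV2 (log2 fold change -3.94 ± 0.346 SE, adjusted p = 6.9e-09 in edgeR). Members of the oligoadenylate synthetase family went the other way, with 33.4 and 24.3 CPM in BV2 and 0.47 and 0.197 CPM in GL261 for Oasl1 (log2 fold change 6.39 ± 0.351 SE, adjusted p = 7.1e-12 in edgeR) and 22.1 and 17.1 CPM in BV2 and 2.35 and 1.48 CPM in GL261 for Oas3 (log2 fold change 3.35 ± 0.426 SE, adjusted p = 1.1e-06 in edgeR).

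Lysosomal and lipid-handling genes were mostly higher in BV2. Of the lysosomal genes, all 31 genes were tested, and 29 were higher in BV2, 1 was higher in GL261 and 1 did not pass the test, with a median of 2.20. Their summed level was 17030 and 16420 CPM in BV2 and 3505 and 3549 CPM in GL261. Cd68, a lysosomal glycoprotein of macrophages, had 727 and 649.5 CPM in BV2 and 2.07 and 2.66 CPM in GL261 (log2 fold change 8.18 ± 0.223 SE, adjusted p = 6.4e-16 in edgeR). Mcoln1, a lysosomal calcium channel, was the exception with 48.2 and 48.2 CPM in GL261 and 32.5 and 34 CPM in BV2 (log2 fold change -0.54 ± 0.141 SE, adjusted p = 0.0022 in edgeR). Of the lipid-handling genes, 22 of 25 genes were tested, and 16 were higher in BV2, 5 were higher in GL261 and 1 did not pass the test. Lpl, lipoprotein lipase, had 2989 and 3509 CPM in BV2 and 0 and 0.59 CPM in GL261 (log2 fold change 13.42 ± 0.504 SE, adjusted p = 2.8e-14 in edgeR), and Fabp4, a fatty acid carrier of fat cells and macrophages, had 79.3 and 77.8 CPM in BV2 and 0.141 and 0 CPM in GL261. Axl, a receptor of the same phosphatidylserine-sensing family as Mertk, was a GL261 gene, with 416 and 436 CPM in GL261 and 1.31 and 1.16 CPM in BV2 (log2 fold change -8.42 ± 0.321 SE, adjusted p = 3.5e-14 in edgeR).

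**Figure D3:**
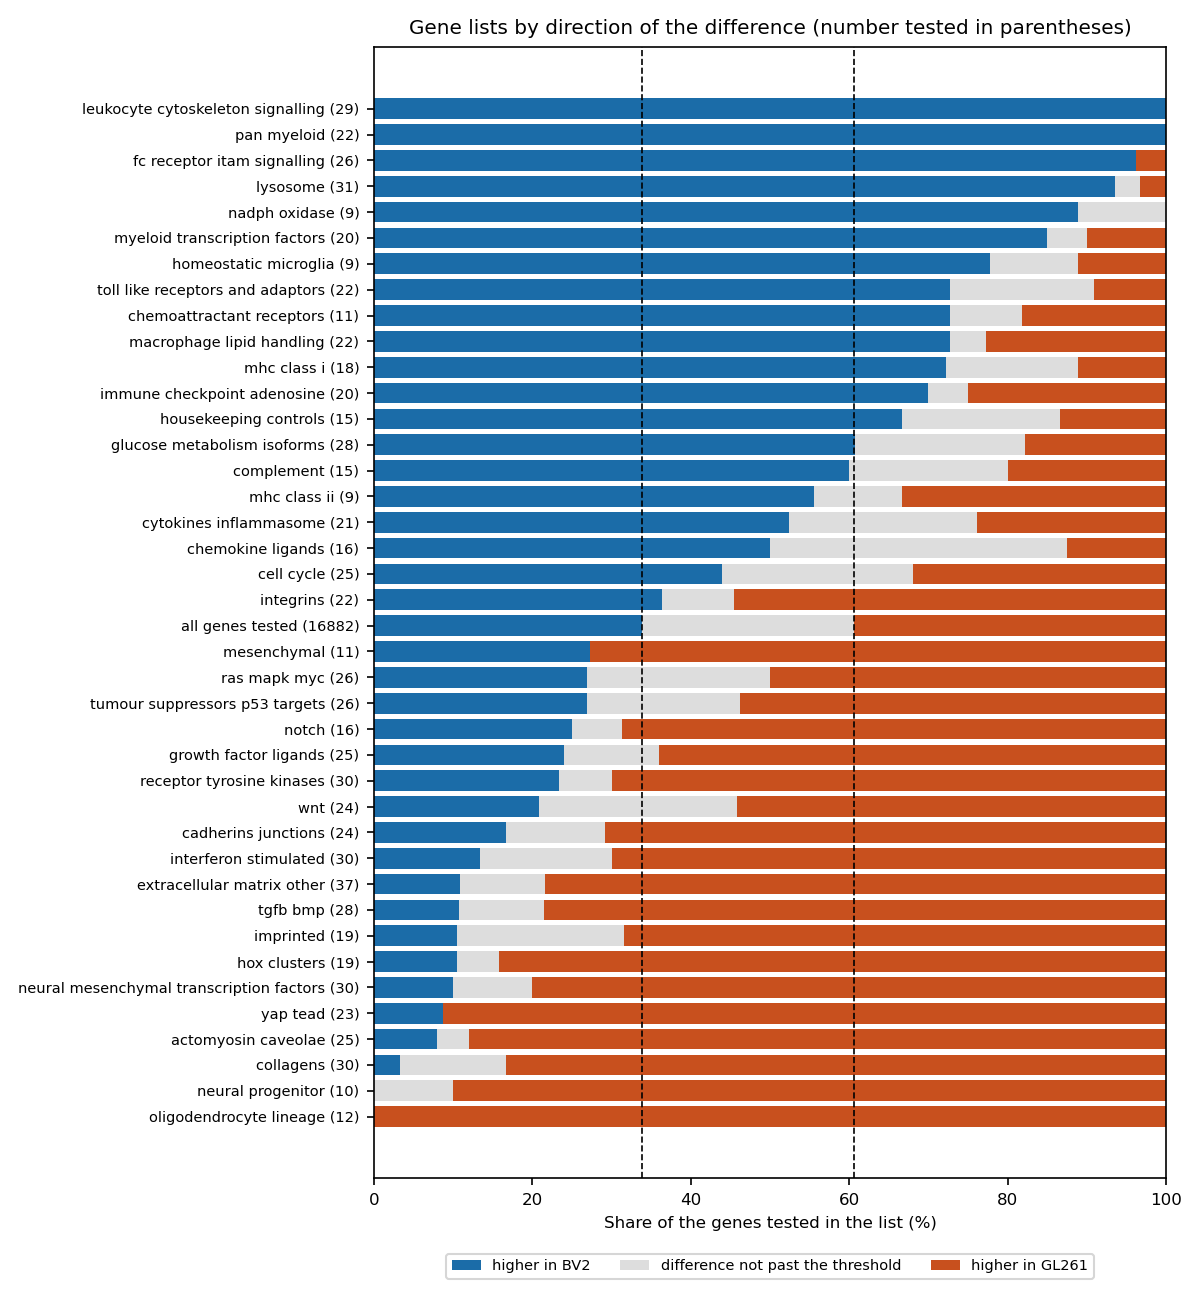
Each row is a gene list, and the bars give the share of its tested genes (x axis, percent) that were higher in BV2 (blue), not past the threshold (grey) or higher in GL261 (orange), with the number tested in parentheses. Dashed lines mark the shares over all genes tested, 33.8% measured from the left edge and 39.4% measured from the right edge. Lists of 9 or more tested genes are shown. Leukocyte cytoskeleton genes are all higher in BV2, and oligodendrocyte-lineage genes all higher in GL261.

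Matrix genes lay mostly with GL261. Of the collagen genes, 30 of 37 genes were tested, and 1 was higher in BV2, 25 were higher in GL261 and 4 did not pass the test, with a median of -7.51, or -5.24 with genes lacking counts in a line set at their bound, and their sum was 90.3 and 101 CPM in BV2 and 9402 and 11630 CPM in GL261. Col6a2, a chain of microfibrillar collagen VI, had 169.5 and 174 CPM in GL261 and no count in either BV2 library, at least 1317-fold higher. Col23a1, a membrane collagen, was the single BV2 gene, with 7.5 and 6.46 CPM in BV2 and 0.329 and 0.246 CPM in GL261 (log2 fold change 4.57 ± 0.334 SE, adjusted p = 4.9e-10 in edgeR). Of the other matrix genes, 37 of 50 genes were tested, and 4 were higher in BV2, 29 were higher in GL261 and 4 did not pass the test. Sparc, a collagen-binding glycoprotein, had 4666 and 4078 CPM in GL261 and 0.339 and 0.356 CPM in BV2 (log2 fold change -13.59 ± 0.445 SE, adjusted p = 4.6e-15 in edgeR), and Mmp2, a gelatinase, had 626 and 703 CPM in GL261 and 0 and 0.0446 CPM in BV2, a ratio of 30560 (95% counting interval 5484 to 1207000, edgeR adjusted p = 1.2e-14). Spp1, osteopontin, was instead among the most strongly counted genes of BV2, with 2482 and 2582 CPM in BV2 and 14.1 and 8.61 CPM in GL261 (log2 fold change 7.80 ± 0.35 SE, adjusted p = 3.7e-13 in edgeR). Its libraries did not overlap between the lines.

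Adhesion genes lay on both sides. Of the integrin genes, 22 of 26 genes were tested, and 8 were higher in BV2, 12 were higher in GL261 and 2 did not pass the test, beside 33.8% and 39.4% of all genes tested. Itgb2, the common chain of the leukocyte integrins, had 68.3 and 64 CPM in BV2 and 0.893 and 0.836 CPM in GL261 (log2 fold change 6.25 ± 0.208 SE, adjusted p = 5.8e-15 in edgeR). Itgam, its CD11b partner, had 9.15 and 8.69 CPM in BV2 and no count in either GL261 library, but 65.2% of its 75-base words occur in another annotated gene and its value is uncertain. Itga2, a collagen receptor chain, had 27.4 and 45.7 CPM in GL261 and no count in either BV2 library, at least 280.1-fold higher in GL261, and Itga3, a laminin receptor chain, had 7.71 and 8.9 CPM in GL261 and 0.0424 and 0 CPM in BV2. Of the cadherin and junction genes, 24 of 31 genes were tested, and 4 were higher in BV2, 17 were higher in GL261 and 3 did not pass the test. Ncam1, the neural cell adhesion molecule, had 84.8 and 109 CPM in GL261 and no count in either BV2 library, at least 742-fold higher in GL261, and L1cam had 696 and 788 CPM in GL261 and 0 and 0.0446 CPM in BV2. Alcam was a BV2 gene, with 143 and 163 CPM in BV2 and 7.19 and 6.15 CPM in GL261 (log2 fold change 4.52 ± 0.265 SE, adjusted p = 1.9e-11 in edgeR).

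Growth factor receptors differed in kind, beside 33.8% higher in BV2 and 39.4% higher in GL261 over all genes tested. Of the receptor tyrosine kinases, 30 of 43 genes were tested, and 7 were higher in BV2, 21 were higher in GL261 and 2 did not pass the test. GL261 expressed Fgfr3, with 518 and 571 CPM in GL261 and 0.0424 and 0.0446 CPM in BV2, and Erbb2 and Erbb3, partners in neuregulin signalling, with 65.2 and 74.7 CPM in GL261 and no count in either BV2 library for Erbb2 and 668 and 777 CPM in GL261 and 0.0424 and 0.0891 CPM in BV2 for Erbb3. BV2 expressed Csf1r, Kdr and Ephb2, the last with 10.8 and 14.4 CPM in BV2 and 0.188 and 0.197 CPM in GL261 (log2 fold change 5.99 ± 0.385 SE, adjusted p = 7.4e-11 in edgeR). Of the ligands, 25 of 38 genes were tested, and 6 were higher in BV2, 16 were higher in GL261 and 3 did not pass the test. Tgfa, a ligand of the EGF receptor, had 117 and 123 CPM in GL261 and 0.0424 and 0 CPM in BV2, a ratio of 5533 (95% counting interval 993 to 218600, edgeR adjusted p = 8.8e-13). Bdnf, a neurotrophin, had 20.9 and 17.1 CPM in GL261 and no count in either BV2 library, at least 146-fold higher in GL261. Igf1 had 10.1 and 9.27 CPM in BV2 and 0.47 and 0.197 CPM in GL261 (log2 fold change 4.82 ± 0.455 SE, adjusted p = 1.9e-08 in edgeR), and Hgf had 2.75 and 2.67 CPM in BV2 and no count in either GL261 library, both higher in BV2. Egfr was among the 13 receptors that were removed by the count filter.

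Among developmental signalling genes, calls in both directions were found, to be read beside the 33.8% higher in BV2 and 39.4% higher in GL261 over all genes tested. Of the Notch genes, 16 of 20 genes were tested, and 4 were higher in BV2, 11 were higher in GL261 and 1 did not pass the test. Dll1, a Notch ligand, had 16.5 and 24.3 CPM in GL261 and no count in either BV2 library, at least 156-fold higher in GL261, while Rbpj, the DNA-binding partner of Notch, had 159 and 174 CPM in BV2 and 35.8 and 43.1 CPM in GL261 (log2 fold change 2.08 ± 0.163 SE, adjusted p = 1.4e-09 in edgeR). Of the Wnt genes, 24 of 35 genes were tested, and 5 were higher in BV2, 13 were higher in GL261 and 6 did not pass the test. Axin2, a feedback target of canonical Wnt signalling, had 91.1 and 103 CPM in GL261 and 0.0424 and 0 CPM in BV2, a ratio of 4463 (95% counting interval 800.5 to 176300, edgeR adjusted p = 2.2e-12). Lrp5, a Wnt co-receptor, was higher in BV2, with 154 and 163 CPM in BV2 and 9.97 and 11.4 CPM in GL261 (log2 fold change 3.89 ± 0.161 SE, adjusted p = 1.2e-13 in edgeR). Of the TGF-beta and BMP genes, 28 of 40 genes were tested, and 3 were higher in BV2, 22 were higher in GL261 and 3 did not pass the test. Bmp1, a protease that matures procollagen, had 45 and 56.8 CPM in GL261 and no count in either BV2 library, at least 390.2-fold higher in GL261. Tgfb1 was higher in BV2, with 175 and 162 CPM in BV2 and 34.8 and 35.9 CPM in GL261 (log2 fold change 2.25 ± 0.146 SE, adjusted p = 8.3e-11 in edgeR). The TGF-beta isoforms thus differed in direction, with Tgfb2 and Tgfb3 on the GL261 side.

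All 23 YAP and TEAD genes tested, of 24, passed the test, 21 higher in GL261 and 2 higher in BV2, with a median of -7.11, or -6.01 with genes lacking counts in a line set at their bound. Yap1, the co-activator of the Hippo pathway, had 163 and 179 CPM in GL261 and no count in either BV2 library, at least 1313-fold higher in GL261 (edgeR adjusted p = 1.4e-15). Ccn1, a secreted target of YAP, had 350.1 and 352 CPM in GL261 and 0 and 0.0891 CPM in BV2, a ratio of 8075 (95% counting interval 2235 to 66690, edgeR adjusted p = 3.3e-15). Crim1 was higher in BV2, with 8.6 and 13.9 CPM in BV2 and 0.188 and 0.197 CPM in GL261 (log2 fold change 5.82 ± 0.443 SE, adjusted p = 8.8e-10 in edgeR). Of the actomyosin and caveola genes, 25 of 26 genes were tested, and 2 were higher in BV2, 22 were higher in GL261 and 1 did not pass the test. Cav1, the coat protein of caveolae, had 154 and 143 CPM in GL261 and no count in either BV2 library, at least 1138-fold higher in GL261. Acta2, smooth muscle actin, was low in both lines and higher in BV2, with 3.56 and 4.14 CPM in BV2 and 2.02 and 1.18 CPM in GL261 (log2 fold change 1.26 ± 0.345 SE, adjusted p = 0.0031 in edgeR).

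Growth control genes were called in both directions, to be read beside the 33.8% higher in BV2 and 39.4% higher in GL261 over all genes tested. Of the p53 targets and tumour suppressors, 26 of 27 genes were tested, and 7 were higher in BV2, 14 were higher in GL261 and 5 did not pass the test, with a median of -0.48. Pmaip1, which encodes the pro-apoptotic protein Noxa, had 30.1 and 37.9 CPM in BV2 and no count in either GL261 library, at least 236-fold higher in BV2. Phlda3, another p53 target, had 91.3 and 80.3 CPM in GL261 and 0 and 0.0446 CPM in BV2, a ratio of 3957 (95% counting interval 709.7 to 156300, edgeR adjusted p = 1.7e-14). Of the Ras, MAPK and Myc genes, 26 of 27 genes were tested, and 7 were higher in BV2, 13 were higher in GL261 and 6 did not pass the test. Myc itself had 211 and 262 CPM in GL261 and 0.975 and 0.624 CPM in BV2 (log2 fold change -8.19 ± 0.233 SE, adjusted p = 9e-16 in edgeR), and both BV2 libraries were below 1 CPM. This value is for the mouse gene, and whether transcripts of the retroviral myc of BV2 were counted was not tested. Dusp4, a phosphatase induced by MAPK signalling, was higher in BV2, with 32.3 and 36.9 CPM in BV2 and 2.16 and 2.165 CPM in GL261 (log2 fold change 3.99 ± 0.267 SE, adjusted p = 1.3e-10 in edgeR). Cell cycle genes were also called in both directions. Of the list, all 25 genes were tested, and 11 were higher in BV2, 8 were higher in GL261 and 6 did not pass the test. Cdk6 had 226 and 239 CPM in BV2 and 46.5 and 55.2 CPM in GL261 (log2 fold change 2.19 ± 0.167 SE, adjusted p = 9.1e-10 in edgeR), and Ccnd2, a D-type cyclin, had 455 and 431 CPM in GL261 and 75.4 and 82.8 CPM in BV2 (log2 fold change -2.49 ± 0.148 SE, adjusted p = 2.4e-11 in edgeR).

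Glucose metabolism genes lay more often with BV2 and imprinted genes with GL261, beside 33.8% and 39.4% of all genes tested. Of the glucose metabolism genes, 28 of 30 genes were tested, and 17 were higher in BV2, 5 were higher in GL261 and 6 did not pass the test. Slc16a1, a lactate transporter, had 353 and 408 CPM in BV2 and 26.1 and 28 CPM in GL261 (log2 fold change 3.81 ± 0.2 SE, adjusted p = 3.4e-12 in edgeR), and Hk3, the leukocyte hexokinase, had 23 and 16.1 CPM in BV2 and 0.047 and 0 CPM in GL261. Ldhb, the lactate dehydrogenase chain of oxidative tissues, had 41.8 and 40.1 CPM in GL261 and no count in either BV2 library, at least 314-fold higher in GL261, although 12.6% of its 75-base words are shared with other genes. Slc2a3, the neuronal glucose transporter, was also a GL261 gene, with 14.3 and 18.6 CPM in GL261 and 0.508 and 0.312 CPM in BV2 (log2 fold change -5.29 ± 0.354 SE, adjusted p = 1.3e-10 in edgeR). Of the imprinted genes, 19 of 29 genes were tested, and 2 were higher in BV2, 13 were higher in GL261 and 4 did not pass the test. Peg3, expressed from the paternal allele, had 95.4 and 108 CPM in GL261 and no count in either BV2 library, at least 778-fold higher in GL261, and Mest, likewise paternal, had 1988 and 1742 CPM in GL261 and 0.0848 and 0.134 CPM in BV2. Igf2r, a maternally expressed receptor that clears Igf2, had 36.6 and 41.9 CPM in BV2 and 2.21 and 1.97 CPM in GL261 (log2 fold change 4.23 ± 0.245 SE, adjusted p = 1.6e-11 in edgeR). Xist, the RNA that coats the inactive X chromosome, had 677 and 754 CPM in BV2 and 0.752 and 1.23 CPM in GL261 (log2 fold change 9.49 ± 0.246 SE, adjusted p = 3.7e-16 in edgeR), and the 4 Y-linked genes on the list, Ddx3y, Uty, Kdm5d and Eif2s3y, had no count in any of the 4 libraries.

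Genes by which tumour and immune cells address each other lay on both sides. Of the checkpoint and adenosine genes, 20 of 26 genes were tested, and 14 were higher in BV2, 5 were higher in GL261 and 1 did not pass the test. Entpd1, the ectonucleotidase CD39, had 48.6 and 51.6 CPM in BV2 and no count in either GL261 library, at least 347-fold higher in BV2, and Cd86, a costimulatory ligand, had 38.3 and 43.2 CPM in BV2 and no count in either GL261 library. Nectin2 was higher in GL261, with 37.6 and 40 CPM in GL261 and 12.8 and 13.4 CPM in BV2 (log2 fold change -1.56 ± 0.154 SE, adjusted p = 3.4e-08 in edgeR). Cd47, the ligand of Sirpa, had 78 and 82.6 CPM in BV2 and 80.1 and 75.3 CPM in GL261 and did not pass the test, so that the ligand was present in both lines and its receptor in BV2. Csf1, the ligand of Csf1r, was itself higher in BV2, with 122 and 149.7 CPM in BV2 and 39.9 and 21.6 CPM in GL261 (log2 fold change 2.14 ± 0.413 SE, adjusted p = 0.00014 in edgeR).

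Paired ligands and receptors are given by their levels, with no measure of contact or signalling. Some pairs were both higher in the same line. Pdgfa had 159.6 and 134 CPM in GL261 and 24.8 and 26.9 CPM in BV2 (log2 fold change -2.50 ± 0.157 SE, adjusted p = 4.9e-11 in edgeR), on the side of Pdgfra. Jag1, a Notch ligand, had 64.2 and 74.7 CPM in GL261 and 0.0424 and 0 CPM in BV2 and Notch1 197 and 199 CPM in GL261 and 7.58 and 8.56 CPM in BV2, both higher in GL261. C3 had 48.4 and 45.8 CPM in BV2 and 0.282 and 0.394 CPM in GL261 (log2 fold change 7.10 ± 0.444 SE, adjusted p = 4.9e-11 in edgeR), on the side of C3ar1, and Apoe had 638 and 679.6 CPM in BV2 and 14.6 and 12.5 CPM in GL261 (log2 fold change 5.60 ± 0.219 SE, adjusted p = 4.8e-14 in edgeR), on the side of its receptor Lrp1, which had 274 ± 33.5 CPM (SD, n = 2) in BV2 and 98.5 ± 21.6 CPM (SD, n = 2) in GL261. In others the ligand and the receptor were higher in different lines. Osm, oncostatin M, was higher in BV2 with 6.53 and 8.56 CPM in BV2 and 1.13 and 0.935 CPM in GL261 (log2 fold change 2.86 ± 0.258 SE, adjusted p = 1e-08 in edgeR), and Osmr, its receptor chain, had no BV2 count and 30.9 ± 4 CPM (SD, n = 2) in GL261. Il33, an alarmin, was higher in GL261 with 8.93 and 5.07 CPM in GL261 and 0.0848 and 0.178 CPM in BV2, and its receptor Il1rl1 had 4.17 ± 1.04 CPM (SD, n = 2) in BV2 and no GL261 count. Fn1, fibronectin, was higher in GL261 with 377 and 392 CPM in GL261 and 0.0848 and 0.178 CPM in BV2, and the receptor chain Itga5 was higher in BV2 with 94.1 and 98.5 CPM in BV2 and 47.6 and 50.1 CPM in GL261 (log2 fold change 0.98 ± 0.122 SE, adjusted p = 8.1e-07 in edgeR). Itga5, Lrp1 and Cd44, the receptor of Spp1, were present in both lines. Cxcl12, Gas6, Csf2, Cd200 and Areg were below the filter on low counts.

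**Figure D4:**
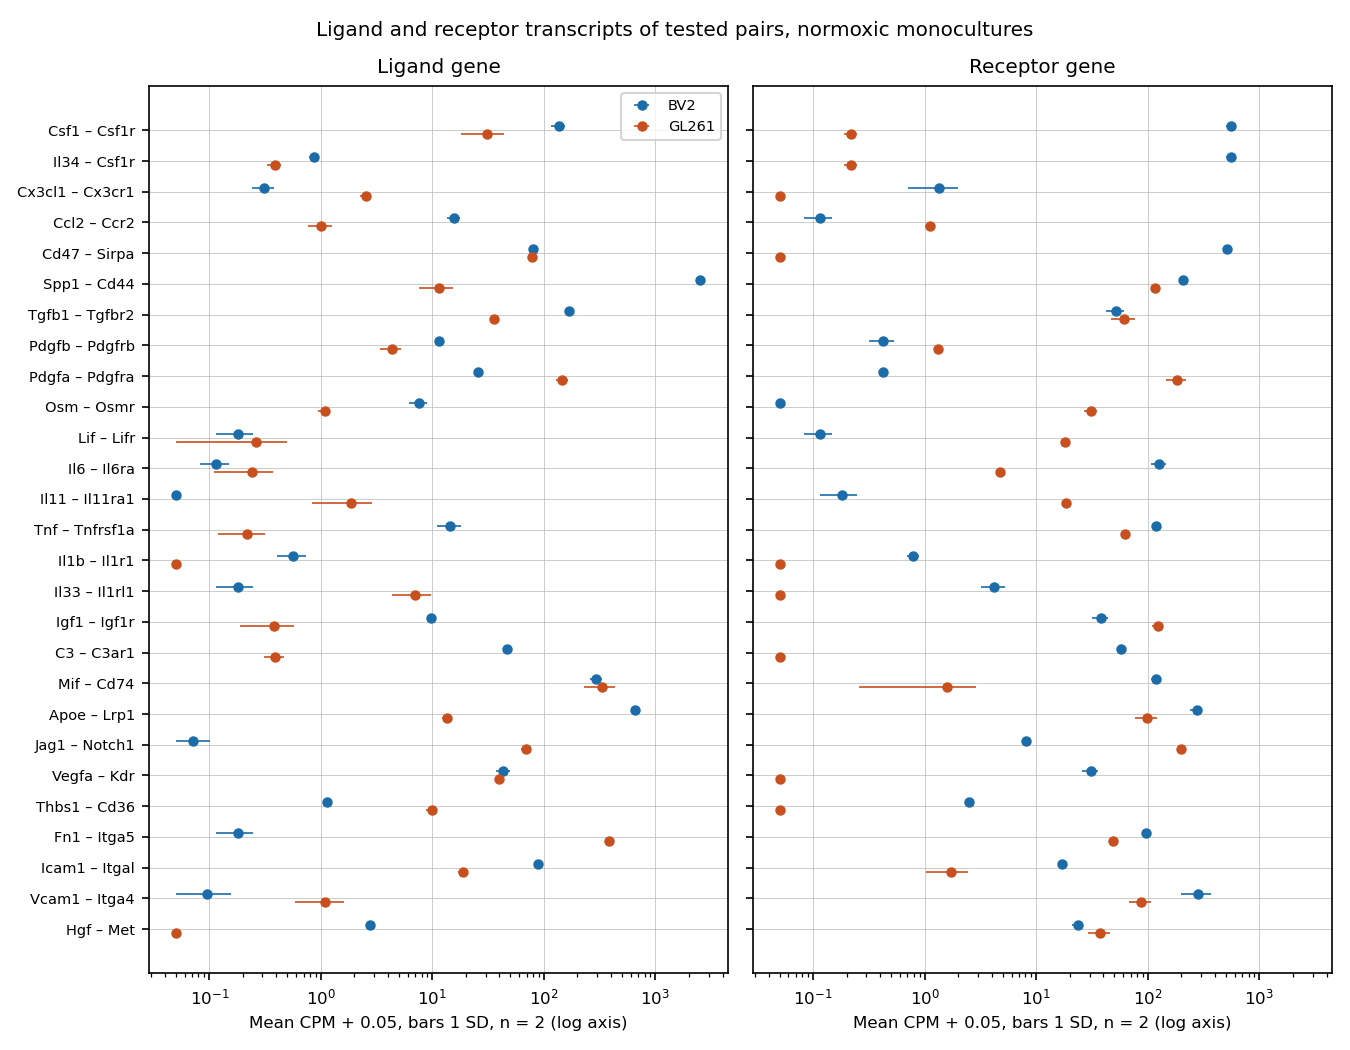
Each row is a tested pair, with the ligand gene in the left panel and the receptor gene in the right panel, and the mean CPM of BV2 (blue) and GL261 (orange) on a log x axis (0.05 added, bars 1 SD, n = 2). BV2 lies to the right for both Csf1 and Csf1r, GL261 for both Pdgfa and Pdgfra, and the lines swap sides between Osm and Osmr.

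Genes often used for normalisation also differed between the lines. Of 15 such genes, 10 were higher in BV2 and 2 in GL261, against 33.8% and 39.4% of all genes tested. Their median log2 fold change was 0.89. Gusb, a lysosomal glucuronidase, had 823 and 828 CPM in BV2 and 96.2 and 93.7 CPM in GL261 (log2 fold change 3.12 ± 0.174 SE, adjusted p = 8.7e-12 in edgeR), and Sdha, a mitochondrial enzyme, had 393 and 396 CPM in BV2 and 65 and 69.5 CPM in GL261 (log2 fold change 2.55 ± 0.111 SE, adjusted p = 2.3e-13 in edgeR). Tbp, the TATA-binding protein, had 49.4 and 46.3 CPM in GL261 and 26.7 and 27.2 CPM in BV2 (log2 fold change -0.83 ± 0.119 SE, adjusted p = 5.2e-06 in edgeR).

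Differences were not spread evenly over the chromosomes (GENCODE M21, GRCm38). For 8818 genes with at least 5 CPM in both lines, a limit set after the data were seen, the median log2 fold change was 0.14. On chromosome 10 the median over 427 genes was -0.69, with 68.6% higher in GL261 and 10.5% in BV2. On chromosome 19 it was 0.76 over 323 genes, with 65.6% higher in BV2 and 14.9% in GL261, and on the X chromosome it was 0.63. The same medians were -1.003, 0.55 and 0.53 in the hypoxic monocultures and -0.70, 0.76 and 0.64 in the normoxic co-cultures. The 3 contrasts use different libraries of the same lines. Within chromosomes, blocks of 41 neighbouring genes reached larger values. At chr4:152008803-156247616, 38 of 41 genes were higher in BV2 and 1 in GL261, with a median of 1.78, while at chr4:11958184-40737149 the counts were 1 and 35, with a median of -1.10. At chr19:29020833-41562261, 34 genes were higher in BV2 and 3 in GL261, with a median of 1.52. These blocks were picked as the extremes of each chromosome and have no test, and DNA copy number was not measured.

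**Figure D5:**
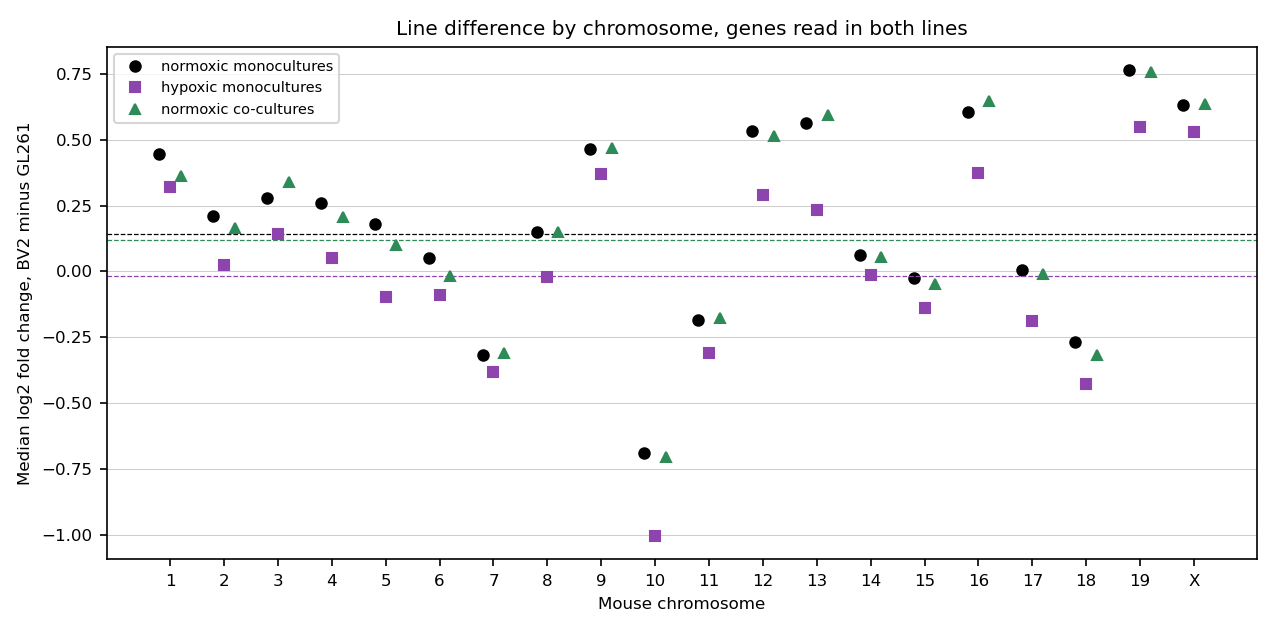
For each chromosome (x axis) the y axis gives the median log2 fold change (BV2 over GL261) of genes with at least 5 CPM in both lines, with symbols and dashed medians over all such genes for the normoxic monocultures, the hypoxic monocultures and the normoxic co-cultures. Chromosome 10 lies lowest and chromosome 19 highest in the normoxic monocultures, at -0.69 and 0.76.

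The same contrast was fitted in libraries outside the comparison. In the hypoxic monocultures 12927 genes (76.6%) were called, 35.3% of those tested being higher in BV2 and 41.2% higher in GL261, and 6055 (35.9%) were called at 4-fold. In the normoxic co-cultures 11816 (70.0%) were called, 33.8% higher in BV2 and 36.2% higher in GL261, and 5146 (30.5%) at 4-fold. Of the 1954 genes at least 4-fold higher in normoxic BV2, 97.1% were called higher in BV2 in hypoxia and 0.358% lower. Of the 3476 at least 4-fold higher in GL261, 90.2% were called in that direction in hypoxia and 0.69% in the other. Of calls of any size, 74.9% of those higher in BV2 were called in the same direction in hypoxia and 549 genes (9.62%) in the opposite one, and of those higher in GL261, 78.5% and 309 genes (4.65%). In the co-cultures the 4-fold genes were called in the same direction in 97.7% and 93.5% of cases, and none in the other. The co-culture libraries also held transcripts of the partner line. The 10 BV2 genes with the largest excess summed to 18.3 and 11.1 CPM in co-cultured GL261 libraries, against no count in GL261 grown alone, and the 10 GL261 genes summed to 27.4 and 18.6 CPM in co-cultured BV2. The part of the partner's RNA in the co-culture contrast was not tested.

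The 20 leading genes kept their line in hypoxia. The 10 BV2 genes summed to 2117 and 2188 CPM in normoxic BV2 and 2780 and 2797 CPM in hypoxic BV2, and to 0.392 and 0.25 CPM in hypoxic GL261. The 10 GL261 genes summed to 2279 and 2849 CPM in normoxic and 2308 and 1955 CPM in hypoxic GL261, and to 0.254 and 1.2 CPM in hypoxic BV2. Olig1 moved most among the latter, from 145 and 270.1 CPM in normoxic to 24.4 and 27.04 CPM in hypoxic GL261. A test of whether the line difference itself changed with oxygen called 6322 of 16882 genes (37.4%), 1155 (6.84%) of them at 4-fold, but for genes without a count in one line its size depends on the prior count. Among the 20, it passed for Gpc1 and Myo5b, whose hypoxic BV2 levels were 0.361 CPM or lower.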

How the data were processed

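Poly(A) RNA was taken from cells fixed in 3% glyoxal and sequenced as stranded libraries with paired-end reads, per the labels' protocols. The authors deposited unnormalized counts of reads for each gene, made with Trimmomatic 0.36, STAR 2.6 and HTSeq 0.9.1 on mm10, per the submitters' processing notes. The annotation version and the strand setting of the counting are not given in the sources used here. Counts of 16 libraries in 8 groups were fitted together with edgeR 4.0.16 in R 4.3.3 (TMM factors, default filter on low counts, quasi-likelihood test, Benjamini-Hochberg adjustment over all 16882 genes, threshold 0.05). Columns were mapped to samples by their names. Coordinates came from GENCODE M21 and promoters from RefSeq.

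The genes named are the 10 with the largest excess in each line among called genes whose mean log2 CPM reached 4 in that line, the 5 with the highest CPM in each line, up to 3 called genes in each direction of each list, any marker, and the genes of the ligand and receptor pairs, with others said to be chosen after their values were seen. The 10 in each line also had to show no overlap between the lines, and predicted-gene and clone names were left out. Members and lists were chosen with earlier results of these data known. Alternatives were DESeq2 1.42.0, other scalings and filters, a replicate block, fits of the libraries compared alone, and leaving out each library. Counts were also simulated with 1 mean profile for all libraries, 1 spread for all genes and 186 changed genes among 15719 tested. There, 84.4% of 2-fold and 95.8% of 4-fold changes were recovered. The real lines differed in most genes, so these rates need not hold for them. Replicates differed by more than sampling noise. A few listed genes are counted in their lists but not reported here by name.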

Additional observations from a re-analysis of the deposited data

Results flagged for a closer look

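For 2 of the 20 leading genes, Gpc1 and Myo5b, the test of the line difference in hypoxia against that in normoxia passed its threshold. For Gpc1 the log2 fold change (BV2 over GL261) was 4.43 higher in hypoxia (SE 1.64, edgeR adjusted p = 0.042), with 0.0635 and 0.24 CPM in hypoxic BV2, no count in normoxic BV2, and 314 and 237 CPM in hypoxic GL261 against 238 and 254 CPM in normoxic GL261. For Myo5b it was 5.18 higher (edgeR adjusted p = 0.022), with 0.0635 and 0.361 CPM in hypoxic BV2, no count in normoxic BV2, and 225 and 179 CPM in hypoxic GL261 against 186 and 254 CPM in normoxic GL261. Both estimates start from a group without counts, so their size depends on the prior count.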

How the results depend on the processing

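The number of genes called between the normoxic monocultures ranged from 8674, when genes needed a mean of at least 5 CPM, to 12926, with no filter beyond 1 count, beside 12353 reported, and was 12069 with DESeq2. Leaving out 1 library at a time, with the lone sample assumed to vary like the other groups, gave 11498 to 11750. The 5 CPM filter lowered the 4-fold counts, since fewer genes were tested, to 2553 (1015 higher in BV2 and 1538 in GL261), and to 2967 in the hypoxic monocultures, 2442 in the normoxic co-cultures and 607 for the change of the line difference with oxygen. Library totals alone moved the median of all genes from -0.119 to -0.274, and the share of calls higher in BV2 from 46.2% to 41.2%. The labels do not say that replicate numbers pair libraries, and deviations of same-numbered normoxic BV2 and GL261 libraries correlated at 0.151 across genes. With replicate number as a block, the counts were 12604, 13121 in hypoxia, 12085 in co-culture and 6685 for the change with oxygen. Of 306 genes tested that the naming rule covers, 291 had the same call in every alternative fit that tested them, with 246 tested under the 5 CPM filter and 296 in the fit of the compared libraries alone. The other 15 included S100a4, Mertk, Actn1, Olfml3, Actb, Tgfbr2, Il34, Tapbpl, Cd79a, Snai1, mt-Nd1, Met, Cdh5 and Mif. Of these, Actb, Cd79a and Cdh5 are given with their levels in the text. No direction reversed among the results recomputed. With 2 libraries a group, differences near the threshold depend on single libraries, and differences of genes under 3 counts in both lines were not detectable at this depth.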

Other observations

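Levels of the same markers in other tables of the series place the 2 lines beside primary cells. These tables were counted and normalized apart, so values are CPM without TMM factors, set side by side with no test. Pan-myeloid markers summed to 30980 and 27790 CPM in bone marrow-derived macrophages grown alone in normoxia, to 5178 and 5140 CPM in BV2, and to 21.8 and 18.5 CPM in GL261. BV2 treated with the solvent DMSO in normoxia, from another table, had 7737 and 5482 CPM. C1qa, a chain of complement C1q, had 1149 and 799.5 CPM in the macrophages and 0.339 and 0.227 CPM in BV2. Lyz2, lysozyme, had 9508 and 8880 CPM in the macrophages and 191 and 168 CPM in BV2. BV2 therefore held the myeloid markers at lower levels than the macrophages did.

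Lhx2 ran the other way. It had 1.0 and 1.5 CPM in the macrophages, 18.9 and 20.5 CPM in BV2, and 12.6 and 22.4 CPM in DMSO-treated BV2. Myc had fewer CPM in BV2 than in the macrophages. It had 126 and 129 CPM in the macrophages, 0.976 and 0.636 CPM in BV2, 0.701 and 1.15 CPM in DMSO-treated BV2, and 232 and 302 CPM in GL261. The low level of the mouse Myc gene was thus seen in both sets of normoxic BV2 libraries and not in the macrophages. Whether transcripts of the retroviral myc were counted was not tested. Sall1 had no count in macrophages grown alone or in BV2 of either table.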
